A study of Danaus plexippus with 36 samples.

Results

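An adult monarch butterfly (Danaus plexippus) tastes by touch with its legs and with its proboscis, and RNA-seq libraries of these appendages were compared here within the same animals. The comparison held 24 libraries, 1 from the legs and 1 from the proboscis of each of 12 animals, out of 35 libraries analysed. Members were chosen by the tissue and the animal number in the sample labels, and the 11 antennal libraries served as levels set beside the result and in 1 alternative fit. All animals were adults taken in the field. They were 6 males and 6 females, the females all gravid, and each of 2 labelled batches held 3 animals of each sex. Which of the leg pairs were dissected, and how old the animals were, is not given in the sources used here. Fewer cells of a type and less RNA per cell cannot be told apart in such whole-tissue libraries.

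A butterfly leg is a jointed cuticular tube with muscles and with taste hairs on its last segments, through which a female also tests a leaf before laying an egg. The proboscis is a coiled feeding tube with its own muscles, a food canal and taste sensilla for nectar. Both hold gustatory receptor neurons, mechanosensory neurons, epidermis and muscle. Genes are given here by the identifiers of the deposited table. The gene name table used for this work (assembly MEX_DaPlex) held 0 of them, so no name, function or location is given, and the tissue labels could not be set against known marker genes.

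The libraries of batch 1 held 9.47 to 15.2 M counts, those of batch 2 from 1.92 M (proboscis of female 11) to 116.6 M (legs of male 12), and all 6 leg libraries of batch 2 held at least 35.6 M. The first principal component of log2 CPM (counts per M counts of the scaled library) held 39.2% of the variance. All 6 leg libraries of batch 2 scored 54.1 to 166 on it, and so did the proboscis libraries of female 1 (68.1) and male 2 (135), while the other 16 libraries scored between -135 and -20.8. Those 8 libraries were deep, at 35.6 to 116.6 M counts, but the proboscis of female 3 had 37.0 M and scored -25.8. With each library thinned to 1915361 counts the same 8 libraries scored 38.0 to 126 and the others -82.2 to -18.4. The second component held 15.3% of the variance. Legs scored higher than the proboscis of the same animal in 12 of 12 animals on each of these components. In batch 1 both libraries of each animal lay on the low side of the first component, and in female 1 and male 2 both lay on the high side. In animals 3, 11, 12 and 16 of batch 2 only the leg library was high, so that a tissue difference in these 4 animals also held the step along the first component. The source of that step was not tested.

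**Figure D1:**
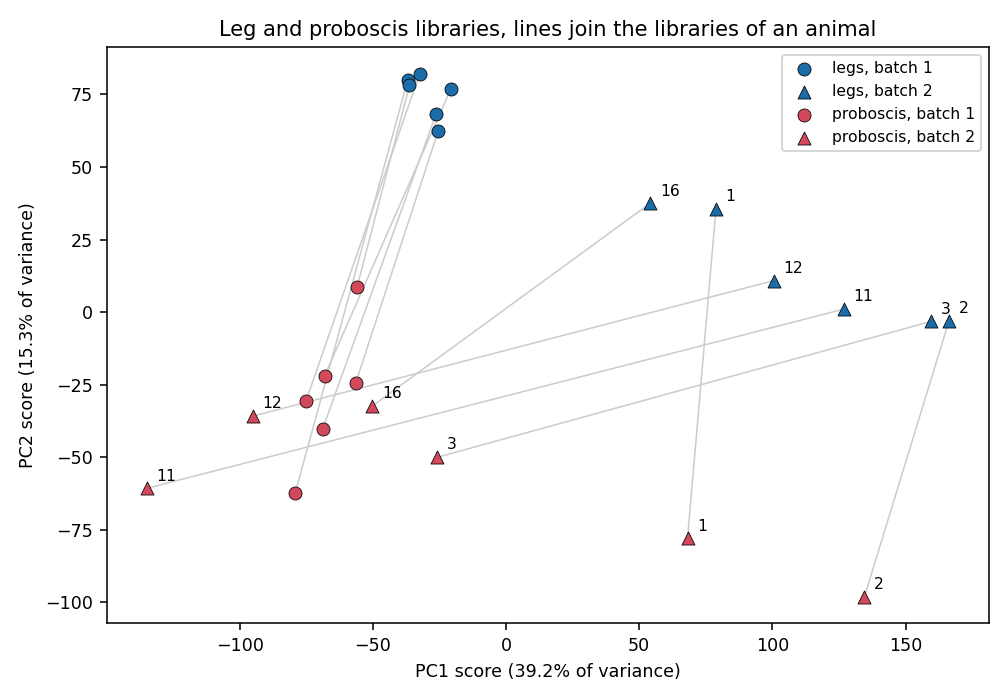
Scores of the 24 libraries on the first (x axis) and second (y axis) principal components of log2 CPM, coloured by tissue, with circles for batch 1 and triangles numbered by animal for batch 2. The leg libraries of batch 2 and the proboscis libraries of animals 1 and 2 lie at 54.1 to 166 on the x axis, and the line joining an animal's libraries rises towards the legs in every animal.

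Of 11034 genes tested, 4125 (37.4%) differed between legs and proboscis of the same animal at an adjusted p below 0.05. Higher in legs were 2275 genes (20.6%), of which 988 differed by 2-fold or more and 47 by 32-fold or more. Higher in proboscis were 1850 genes (16.8%), of which 1231 differed by 2-fold or more and 65 by 32-fold or more. More of the large differences were thus on the proboscis side. Each of the 4125 genes had the same direction in both batches, as had 7695 of all 11034 genes tested. The fit that called them pools both batches, so the choice itself favours such agreement. The count of called genes was 4425 without animals 3, 11, 12 and 16 and 3465 without animals 1 and 2. Both sets were left out after the data were seen. Upper-quartile scaling moved the median log2 difference of all genes from 0.05 to -0.05, and the share of calls that were higher in legs from 55.2% to 45.7%.

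The batches share no animal, so each gives its own comparison. In batch 1 alone 3265 genes (29.6%) were called, 1517 higher in legs (13.7%) and 1748 higher in proboscis (15.8%). In batch 2 alone 2181 genes (19.8%) were called, 1168 higher in legs (10.6%) and 1013 higher in proboscis (9.18%). Called in each batch alone with the same direction were 1418 genes (12.9% of those tested), which is 43.4% of the batch 1 list and 65.0% of the batch 2 list. They are called the held genes below, 679 higher in legs (6.15%) and 739 higher in proboscis (6.7%). Only 1 gene was called in both batches with opposite directions. Of the 1846 genes called in batch 1 and not in batch 2, 1397 had the same direction in batch 2. Of the 762 called in batch 2 and not in batch 1, 705 had the same direction in batch 1. Among all 11034 genes tested, 7695 had the same direction in both batches. The count of held genes was 2320 by DESeq2, and 1415 of the 1418 were among them. By limma voom it was 1961, with 1409 of the 1418 among them. By edgeR it rested on single animals of batch 2: it was 562 when male 12 was left out, 643 when female 3 was and 715 when male 16 was. With batch 2 reduced to female 1 and male 2 it was 385, from 2 animals in that batch.

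**Figure D2:**
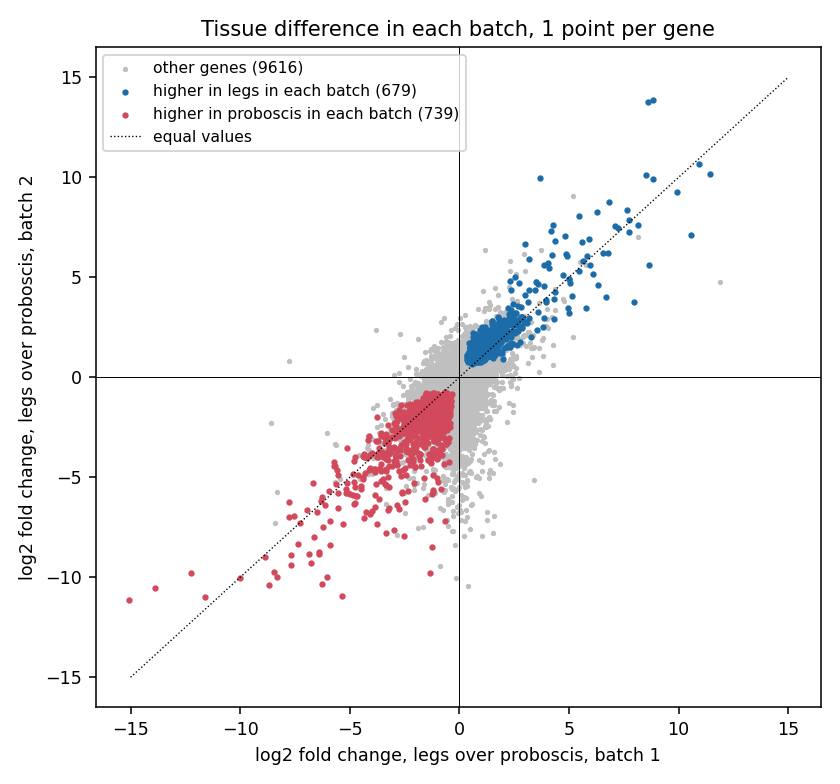
Fitted log2 fold change of legs over proboscis for each of the 11034 genes in batch 1 (x axis) and in batch 2 (y axis). The 679 genes higher in legs and the 739 higher in proboscis in each batch are coloured, other genes are grey and the dotted line marks equal values. Most held genes lie farther from 0 in batch 2, which their choice can favour. A band of grey genes near 0 in batch 1 runs down to about -10 in batch 2.

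The fitted differences of the held genes were mostly larger in batch 2, a description with no test. A held gene had to be called in batch 2, where fewer genes were called, and such a choice can favour large values there. In animals 3, 11, 12 and 16 of batch 2 the tissue difference also held the step along the first principal component. What made the values larger was not tested. The held genes higher in legs had a median log2 fold change of 1.03 in batch 1 and 1.53 in batch 2, and in 114 of 679 the larger value came from batch 1. Those higher in proboscis had medians of -1.52 and -2.28, and in 155 of 739 the larger size came from batch 1. Genes called in the fit of batch 1, held or not, had medians of 0.93 in batch 1 and 1.01 in batch 2 for legs. For proboscis they were -1.06 and -1.25. Genes called in the fit of batch 2 had 0.75 and 1.38 for legs, and -1.18 and -2.28 for proboscis. Over all genes the medians were 0.01 and 0.06. The values of the 2 batches had a Pearson correlation of 0.676 across the 11034 genes, a description over genes that share their libraries within a batch. The common direction was seen in 12 of 12 animals for 550 held leg genes and 515 held proboscis genes, where 844 (7.65%) and 666 (6.04%) of all genes tested had these patterns. By the smaller of the 2 within-batch values, 336 leg genes and 515 proboscis genes differed by 2-fold or more in each batch, and 27 and 42 by 32-fold or more.

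The leg genes and the proboscis genes sat at different levels. Held leg genes averaged a median of 73.5 CPM in legs, and 262 of 679 averaged at least 100 CPM there. Held proboscis genes had a median of 33.5 CPM in proboscis, with 168 of 739 at 100 CPM or more and 170 under 10 CPM, against 45 leg genes under 10 CPM in legs. All tested genes were ranked by their mean level over the 24 libraries and cut into 4 parts of equal number. This mean takes both tissues, so a larger difference lowers the rank at a given level in the higher tissue. Calls over the 24 libraries rose with level, from 28.8% of the lowest part to 51.1% of the highest. In the highest part (36.3 CPM and above, 2759 genes) 21.3% were held, 373 leg genes and 215 proboscis genes. In the lowest part (3.23 CPM and below, 2759 genes) 7.94% were held, 52 leg genes and 167 proboscis genes. The order in these parts was the same with every library thinned to 1915361 counts (301 and 259 in the highest part, 22 and 78 in the lowest) and with upper-quartile scaling (305 and 242, 46 and 173). Together the held leg genes took 15.0% ± 4.56 of leg counts (SD, n = 12) and 6.45% ± 2.20 of proboscis counts (SD, n = 12). The held proboscis genes took 11.9% ± 2.51 of proboscis counts and 2.68% ± 0.609 of leg counts (SD, n = 12 each). These shares describe genes chosen by the same libraries.

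A few held genes were close to absent from the other appendage. At least 10 CPM on average in legs and under 1 CPM in proboscis were 23 genes, and 38 genes had the opposite pattern. The 23 leg genes together took 0.0142% to 0.116% of leg counts, with a median of 0.0765%, and at most 0.00268% of the counts of any proboscis library. The 38 proboscis genes took 0.128% to 2.12% of proboscis counts, with a median of 0.521%, and at most 0.00295% of the counts of any leg library. The groups did not overlap in either set, a separation that the choice of the genes fixes.

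The genes named here are those with the largest difference in the weaker of the 2 batches, out of 497 leg genes and 401 proboscis genes with the same direction in 12 of 12 animals and at least 10 CPM in the higher tissue of each batch. DPOGS213741 ran from 3.11 CPM in the lowest to 276 CPM in the highest leg library, with a median of 47.0 CPM. In the proboscis it had no count in any library of batch 1 and 10 counts in 5 libraries of batch 2, at most 0.152 CPM. The lowest leg library lay above the highest proboscis library, as for 85 genes (0.77%) in this direction. The log2 fold change was 10.85 ± 0.46 (SE, adjusted p = 1.01e-09, higher in legs in 12 of 12 animals), and 11.45 without male 16. In batch 1, with 1443 counts in legs against 0 in proboscis, it was at least 513-fold higher in legs, taking 3 counts summed over the 6 proboscis libraries as the floor, and at least 219-fold without female 25. In batch 2 the ratio of the pooled levels, each the counts summed over libraries divided by their summed scaled sizes, was 1865 (95% Clopper-Pearson interval 1014 to 3889). Such bounds and intervals cover counting error only.

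DPOGS213741 was higher in the legs of batch 2 than in those of batch 1, at 108 ± 86.8 and 16.99 ± 16.2 CPM (SD, n = 6 each, log2 difference 2.59, adjusted p = 0.00549). The ranges nevertheless met, since the legs of female 25 in batch 1 had 47.7 CPM and the lowest of batch 2 had 46.2 CPM. Antennae also held this transcript, with a median of 47.3 CPM over 11 libraries and a range of 1.26 to 299 CPM.

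DPOGS215854 ran from 9.74 to 183 CPM in legs, with a median of 35.6 CPM. Its proboscis libraries had no count in batch 1 and 13 counts in batch 2, all from female 1, male 2 and female 3, at most 0.156 CPM. The leg and proboscis libraries did not overlap. The log2 fold change was 10.48 ± 0.42 (SE, adjusted p = 7.92e-10, 12 of 12 animals), and 11.19 without female 1. In batch 1 the level was at least 710-fold higher in legs (at least 408-fold without female 25), and in batch 2 the ratio was 1028 (95% interval 601 to 1932). In antennae it was low, with a median of 2.16 CPM and at most 13.1 CPM.

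DPOGS205671 was the most abundant of the named genes. It ran from 169 to 6922 CPM in proboscis, with a median of 1459 CPM, and from 0 to 2.47 CPM in legs. The lowest proboscis library lay above the highest leg library, as for 73 genes (0.662%) in this direction. The log2 fold change was -11.96 ± 0.70 (SE, adjusted p = 2.72e-08, higher in proboscis in 12 of 12 animals). The leg counts were uneven, with 2 counts in the 6 libraries of batch 1 and 418 in those of batch 2. In batch 1 the pooled level was therefore 50998 times higher in proboscis with a 95% interval from 14117 to 421115, and in batch 2 it was 3245 times higher (2949 to 3580). These ratios were 96357 without female 27 and 5394 without female 1. Antennal libraries ran from 0.782 to 1260 CPM and overlapped both tissues, and their median of 120 CPM lay between them.

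DPOGS211000 was steadier among animals. Its proboscis level ran from 77.9 to 372 CPM with a median of 179 CPM, and its leg level from 0 to 0.453 CPM. The highest leg library was that of male 20, with 4 counts. The libraries of the tissues did not overlap. The log2 fold change was -11.17 ± 0.54 (SE, adjusted p = 3.14e-09, 12 of 12 animals). The proboscis averaged 239 ± 78.7 CPM in batch 1 and 145 ± 56.5 CPM in batch 2 (SD, n = 6 each). In antennae the median was 0 and the highest library had 1.76 CPM.

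**Figure D3:**
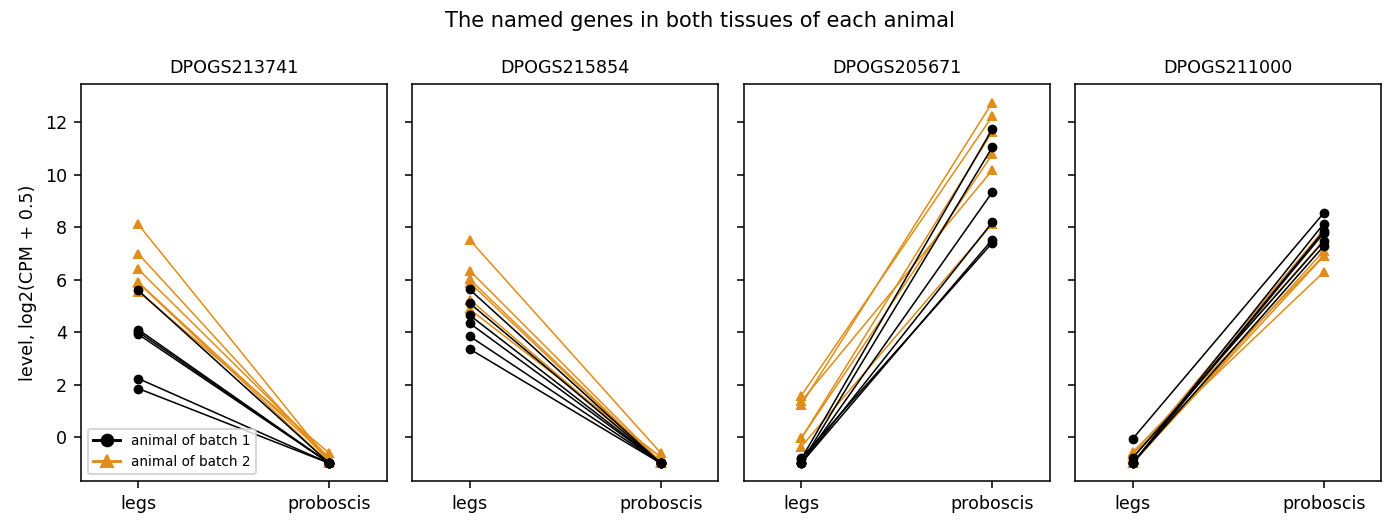
Level of the 4 named genes as log2(CPM + 0.5) in legs and proboscis, with a line for each of the 12 animals, circles for batch 1 and triangles for batch 2. Lines fall from legs to proboscis in 12 of 12 animals for the first 2 genes and rise in 12 of 12 for the others. The rule that named the genes asked for this.

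Genes chosen in the animals of 1 batch separated the tissues in the animals of the other. The 1517 genes higher in legs in batch 1 took 30.2% to 35.5% of the counts of the leg libraries of batch 2 and 16.9% to 24.8% of those of its proboscis libraries, and were higher in legs in 6 of 6 animals (mean difference 12.8 ± 4.29 percentage points, SD, n = 6). The 1168 genes higher in legs in batch 2 took 15.9% to 18.6% in legs and 8.72% to 14.4% in proboscis of batch 1, again higher in legs in 6 of 6 animals (6.61 ± 2.67 percentage points). Leg and proboscis libraries did not overlap in either set.

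In the other direction, the 1748 genes higher in proboscis in batch 1 took 16.7% to 24.4% of proboscis counts and 6.53% to 8.74% of leg counts in batch 2. The 1013 genes higher in proboscis in batch 2 took 7.06% to 16.7% of proboscis counts and 2.72% to 4.83% of leg counts in batch 1. Both differences held in 6 of 6 animals. Gene by gene, 83.2% of the leg genes and 88.8% of the proboscis genes of batch 1 had the same direction in batch 2, and 98.9% and 95.6% of those of batch 2 had the same direction in batch 1. Over all genes, 51.8% and 48.2% had these directions in batch 2, and 50.7% and 49.3% in batch 1. The same direction in both batches was seen in 7695 of the 11034 genes tested.

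**Figure D4:**
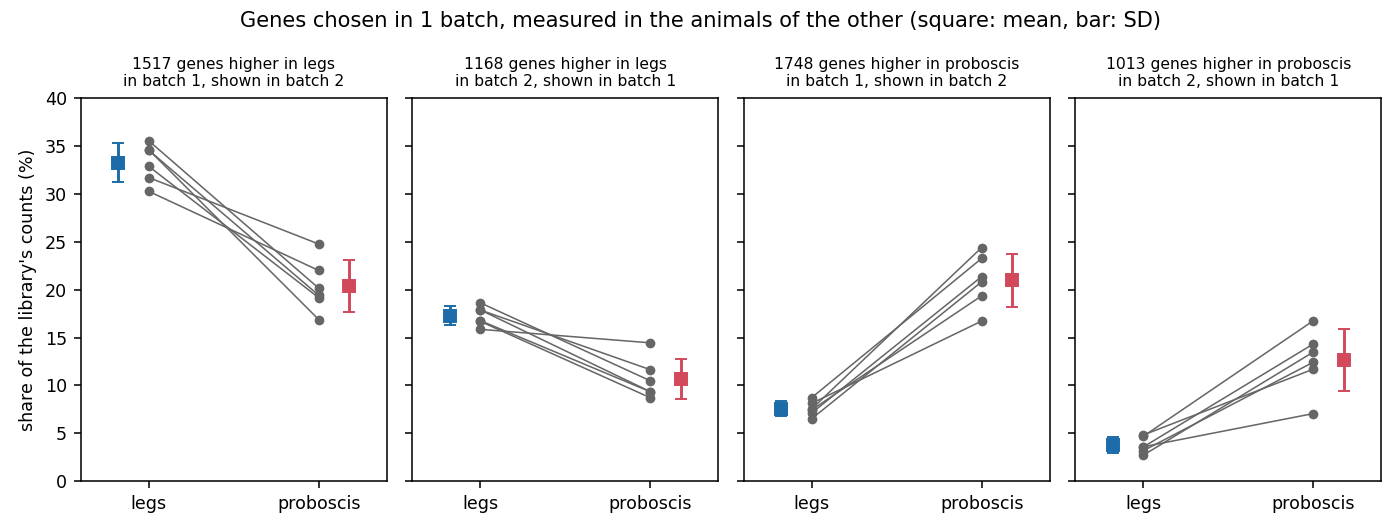
Share of each library's counts (%) taken by genes called in 1 batch alone and measured in the 6 animals of the other batch, with a line for each animal, a square for the mean and a bar for the SD. Genes chosen as higher in legs take more of the leg counts in 6 of 6 animals of the other batch, and genes chosen as higher in proboscis take more of the proboscis counts in 6 of 6.

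Among the animals of batch 1, these shares separated least in female 27. The 1168 leg genes of batch 2 took 15.9% of the counts in this female's legs and 14.4% in the proboscis, and the 1013 proboscis genes of batch 2 took 3.60% and 7.06%. On the second principal component the proboscis of female 27 scored 8.61, and the other proboscis libraries scored -22.0 or lower. Of the 679 held leg genes 88.4% were higher in the legs of female 27, and 97.8% or more in each other animal. Of the 739 held proboscis genes 95.8% were higher in the proboscis of female 27, a larger share than in female 1 (91.6%), male 20 (92.7%) and female 11 (93.1%). DPOGS213741 and DPOGS215854 nevertheless had no count in the proboscis of female 27.

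The tissue profiles of female 1 and male 2 were the ones most like those of batch 1. Across all genes, the log2 difference between legs and proboscis correlated with the mean difference of the batch 1 animals at 0.781 in female 1 and 0.712 in male 2. In the other 4 animals of batch 2 the correlation was 0.356 (female 11), 0.478 (female 3), 0.481 (male 12) and 0.598 (male 16). These are descriptions over genes and carry no test. The animals also differed in the overall size of the difference: its median absolute log2 value was 0.499 in female 1 and 0.519 in male 2, 0.407 to 0.773 in batch 1, and 0.702 to 1.39 in the other animals of batch 2. Of the held genes, 672 of 679 leg genes and 677 of 739 proboscis genes had the common direction in female 1, and 678 and 709 had it in male 2.

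Between the batches, 4851 genes (44%) differed in legs, 2406 higher and 2445 lower in batch 2, with a median absolute log2 difference of 0.823 over all genes. In proboscis edgeR called 0 genes, while 433 had an unadjusted p under 0.05, DESeq2 called 15 and limma voom 0, and the median absolute log2 difference was 0.364. The 6 proboscis libraries of batch 2 were uneven among themselves, and without animals 3, 11, 12 and 16 there were 2993 calls in proboscis and 2904 in legs. A call in legs and none in proboscis does not show that the tissues differed. The direct test of that, the tissue by batch term, called 10 genes (0.0906%), while 2348 had an unadjusted p under 0.05. In all 10 the difference of legs minus proboscis was lower in batch 2. DESeq2 called 523, of which 79 were higher and 444 lower in batch 2, and limma voom called 34. The count was 141 with each library thinned and 51 without the animal as a block, all lower in batch 2. It depended on 2 animals, and so did its direction: it was 1485 without female 1, 32 without male 2, 3598 without both (1765 higher and 1833 lower in batch 2), and 0 without animals 3, 11, 12 and 16 (555 genes at an unadjusted p below 0.05).

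The 10 genes were present in both tissues in batch 1 and close to absent from some libraries in batch 2. Their summed level was 65.3 to 96.3 CPM in the legs and 77.2 to 105 CPM in the proboscis of batch 1, where every library had a count of all 10. In the legs of batch 2 it was 0.0305 to 0.235 CPM, from 2 to 21 counts per library. In the proboscis of batch 2 it was 121 CPM in female 11, 98.5 CPM in male 12, 44.8 CPM in male 16 and 11.5 CPM in female 3, but 0.269 CPM in female 1 and 0.129 CPM in male 2. The libraries with almost none of these transcripts were thus the 8 that scored high on the first principal component. The values chose the genes, so the pattern is a description.

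**Figure D5:**
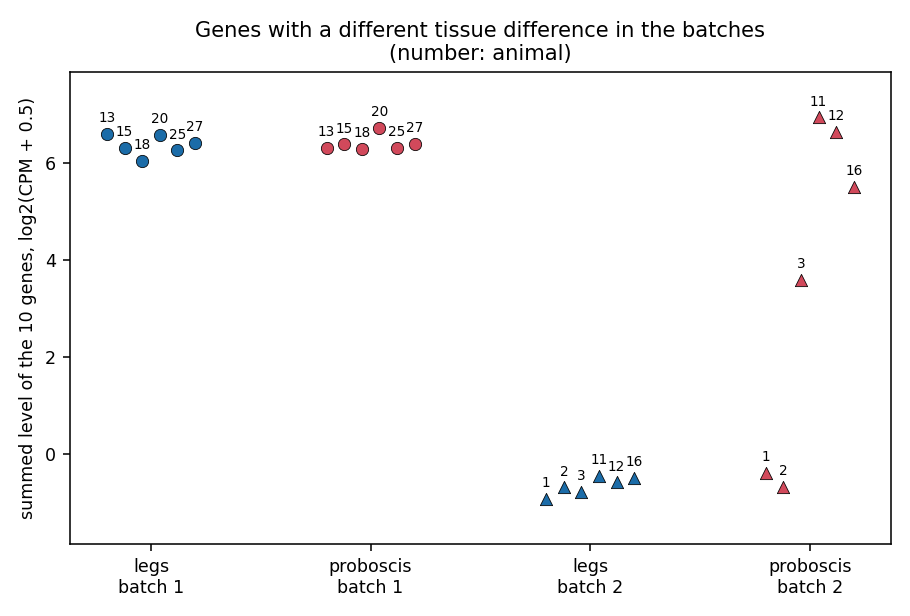
Summed level of the 10 genes with a tissue by batch difference, as log2(CPM + 0.5), in each library by tissue and batch, with the animal number above each point. All 12 libraries of batch 1 and 3 proboscis libraries of batch 2 (11, 12 and 16) lie at 44.8 CPM or more, that of animal 3 at 11.5 CPM, and the 6 leg libraries of batch 2 and the proboscis libraries of animals 1 and 2 below 0.3 CPM.

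DPOGS207139 had the largest such term among genes reaching 10 CPM in a tissue of either batch. In batch 1 it ran from 8.16 to 16.3 CPM in legs and from 5.99 to 15.6 CPM in proboscis, and the tissues overlapped (adjusted p = 0.119). In batch 2 the 6 leg libraries had no count, while the proboscis libraries ran from 0 to 10.3 CPM with a median of 2.36 CPM. The proboscis level was 10.3 CPM in male 12, 6.29 CPM in male 16 and 4.57 CPM in female 11. It was 0.156 CPM in female 3, 0.0184 CPM in male 2 and 0 in female 1, so these animals had almost none in either tissue. With the libraries of batch 2 pooled, the level was at least 179-fold lower in legs, against a floor of 3 counts over the 6 leg libraries. The bound was 65.1-fold without male 12 and 102-fold without male 16. The fitted tissue by batch term was -10.31 ± 0.68 on the log2 scale (SE, adjusted p = 0.000689), a size that depends on how counts of 0 are treated. The term was -8.95 without male 12 and -6.57 (adjusted p = 0.0521) by limma voom. Without animals 3, 11, 12 and 16 it was -1.73 (adjusted p = 1). Batch 2 then kept female 1 and male 2, whose only count of this gene was 1 in the proboscis of male 2. That setting could therefore not test the term. DPOGS214466 came next and was also the gene called in opposite directions in the batches. It ran from 7.94 to 17.7 CPM in legs and from 2.52 to 6.21 CPM in proboscis of batch 1, without overlap (log2 fold change 1.52 ± 0.21, SE, adjusted p = 0.00157). In batch 2 the legs had 2 counts in all, and the proboscis had 0 to 10.5 CPM, with no count in female 1 and male 2. The ratio of pooled levels in batch 2 was 129 in favour of the proboscis (95% interval 35.1 to 1078), 77.7 without male 16 and 276 without female 3, and the tissue by batch term was -9.50 ± 1.06 (SE, adjusted p = 0.00329). The term was -8.30 without female 11 and -10.48 without female 3. Without animals 3, 11, 12 and 16 it was -1.53 (adjusted p = 1). Female 1 and male 2, then the only animals of batch 2, had no count of DPOGS214466 in either tissue. For this gene too, that setting could not test the term.

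The tissue difference was compared between females and males by a tissue by sex term. By edgeR 0 genes were called (smallest adjusted p = 0.684), 351 had an unadjusted p under 0.05, and DESeq2 called 24 and limma voom 0. In females alone 783 genes differed between legs and proboscis, and in males alone 2261. Called in both sexes were 626 genes, all with the same direction. The unequal counts do not show a difference between the sexes. Since each female was gravid, effects of sex and of gravidity cannot be told apart.

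Antennal levels were set beside the held genes, with the 35 libraries scaled together and levels as means of log2(CPM + 0.5). Of the 679 held leg genes, antennae lay below both other tissues in 581 (85.6%) and above both in 24. The median level of these genes was 6.22 in legs, 4.94 in proboscis and 3.99 in antennae. Of the 739 held proboscis genes, antennae lay above both in 431 (58.3%) and below both in 103, with medians of 4.85 in proboscis, 2.94 in legs and 5.06 in antennae. Over all tested genes with a higher mean in legs, antennae lay below both in 72.7%, and over those with a higher mean in proboscis, antennae lay above both in 59.3%. The share for the proboscis genes was thus near that of all genes. The antennal libraries come from the same animals, and no test was made.

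Held genes had a held neighbour in the numbering of the identifiers at a higher rate than the share of held genes, a description with no test. Among 523 held leg genes whose next identifier was also tested, the next gene was a held leg gene in 76 (14.5%), where held leg genes are 6.15% of all genes tested. Among 531 held proboscis genes it was a held proboscis gene in 90 (16.9%), against 6.7%. Over the same 523 held leg genes and 531 held proboscis genes together, the next gene was held in the opposite direction in 42. The longest runs held 4 genes in each direction. Whether consecutive identifiers lie side by side in the genome is not given in the sources used here, and neighbours may share reads.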

How the data were processed

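Raw read counts per gene model, as deposited by the authors, were read for 35 libraries; the antennae of male 2 were not analysed here. RNA was prepared with a strand-specific messenger RNA kit, per the labels' protocols. The submitters' processing notes name HISAT2 2.0.5, limma, FastQC 0.11.5 and featureCounts 1.5.2, with no roles. Build, annotation release, strand setting and the treatment of multiply mapping reads were not given in the sources used here, so genes sharing reads with a copy or an overlapping gene are uncertain.

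Genes were filtered with filterByExpr over the groups of tissue and sex in the 24 libraries, which kept 11034 of 15130 rows; the 4096 removed rows held 0.0701% of the counts. Counts were tested in R 4.3.3 with edgeR 4.0.16 (quasi-likelihood test, trimmed mean of M values scaling, Benjamini-Hochberg adjustment over all genes tested, called below 0.05). The main model had the animal as a block and the tissue. Fits within a batch had their own scaling. The tissue by batch term was added to the blocked model, and the tissue by sex term to that. Batch differences within a tissue had sex as a covariate. Standard errors derive from the F statistic. DESeq2 1.42.0 and limma 3.58.1 (voom) were alternatives. Principal components were taken from log2 CPM. Thinning drew counts without replacement. The procedure was tested on simulated data. Figures used matplotlib 3.10.9.

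Pairing comes from the animal numbers in the labels. Deviations from the means of tissue and batch correlated across genes between the libraries of an animal with a median of 0.425, above 0.1 in 9 of 12 animals and lowest at -0.218 in female 1. Within a group, each pair of libraries differed by more than sampling noise (smallest chi-square per gene 41.7). P-values of the fits with the animal as a block rest on how the leg to proboscis difference varies between these animals. Those of the batch differences within a tissue rest on how levels vary between animals.

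The samples, tests and lists were chosen with earlier results of these data known. Lists of chemosensory, muscle, cuticle and other genes were void, since no identifier could be paired with a name. Up to 2 genes a direction were named. For the tissue difference the rule asked for a call in the fit over both batches and in each batch, the same direction in 12 of 12 animals and 10 CPM or more, on average, in the higher tissue of each batch, ranked by the smaller of the within-batch fold changes. For the tissue by batch term it asked for a call and 10 CPM in any group, ranked by size.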

Additional observations from a re-analysis of the deposited data

Results flagged for a closer look

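In groups of 6 libraries of a tissue and batch, 7 of 41 groups had a library far from the others. Chance flags about 1 in 20 only where values are independent and normally distributed. These groups share libraries and some rest on few counts, so their chance rate is not known. The legs of female 3 stood apart in batch 2 for DPOGS213741 (276 CPM), DPOGS215854 (183 CPM) and DPOGS214466 (0.0271 CPM, from 1 count). The legs of female 25 stood apart in batch 1 for DPOGS213741, at 47.7 CPM. DPOGS211000 reached 0.453 CPM in the legs of male 20 and was at most 0.0770 CPM in the other legs of batch 1. DPOGS207139 had 15.6 CPM in the proboscis of male 15. The leg library of male 15 was the shallowest of its batch, at 11.7 M counts.

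The leg to proboscis difference differed between the batches in 10 genes by the tissue by batch term. The named ones had terms of -10.31 for DPOGS207139 and -9.50 for DPOGS214466 on the log2 scale.

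The antennal libraries, which took no side in the comparison, held 3 of the named genes above the level of the lower tissue. The antennal median was 47.3 CPM for DPOGS213741, 2.16 CPM for DPOGS215854 and 120 CPM for DPOGS205671, while the highest library of the lower tissue had 0.152, 0.156 and 2.47 CPM.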

How the results depend on the processing

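The log2 fold changes of the 4 genes named for the tissue difference kept their direction and their call in all 22 alternatives run for each, at 8.97 to 11.4 for DPOGS213741, 9.47 to 11.2 for DPOGS215854, -12.6 to -11.5 for DPOGS205671 and -11.95 to -10.04 for DPOGS211000.

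With no term for the animal as a block, 3743 genes differed between the tissues, 1015 were held (426 in legs, 589 in proboscis) and 51 had a tissue by batch difference, and the share of proboscis genes of batch 1 differed by -9.99 percentage points. The lists then held 1126 proboscis genes in batch 1 and 759 leg genes in batch 2, and the named tissue calls did not change. With the antennae in the fit, 3451 of 11804 genes differed between legs and proboscis. DESeq2 gave 2320 held genes, 523 with a tissue by batch difference, 24 with a tissue by sex difference and 15 that differed between batches in proboscis. Limma voom gave 34 tissue by batch genes. Thinned to 1915361 counts, 3172 genes differed, 1231 were held and 141 had a tissue by batch difference. Thinned to 9470403 counts with animal 11 left out, 3947 differed, 1062 were held and 1 gene had a tissue by sex difference. The tissue difference was called for 2181 genes in batch 2 alone, 783 in females alone and 2261 in males alone, fits with fewer animals.

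Without animals 1 and 2 the tissue by batch count was 3598. Without animals 3, 11, 12 and 16 it was 0, held genes numbered 385, and batch differences 2904 in legs and 2993 in proboscis. These settings and the thinning without animal 11 were chosen after seeing the data. Leaving out 1 animal at a time gave 3582 to 4187 genes for the tissue difference, 562 to 1497 held genes, 6 to 1485 tissue by batch genes, 3865 to 5356 batch genes in legs, and 0 for the tissue by sex difference and for batch in proboscis. The terms of DPOGS207139 and DPOGS214466 lost their call in 2 alternatives each, the one without animals 3, 11, 12 and 16 (-1.73 and -1.53), limma voom for the first (-6.57) and thinning without animal 11 for the second (-6.36). Without animals 3, 11, 12 and 16, batch 2 held almost no count of either gene, so that setting could not test these terms. The cause of the other changes was not tested. The proboscis of female 11, with 1.92 M counts, limits what low genes can show.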
